A study of Mus musculus with 23 samples.

Results

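The 42 genes described here, which encode the sarcomere's scaffold, were followed from embryonic stem cells through primary myoblasts and cultured myotubes to adult mouse muscle. Their products hold the contractile filaments in register: the giant filament proteins and the M band, the Z disc, the desmin network with the costamere (the link from the Z disc to the membrane), the caps of the thin filament's pointed end, the thick filament's binding proteins, and the proteases, ubiquitin ligases and ankyrin repeat proteins that sit on titin. The members were chosen by name as every gene of this list with a probe on the array, which gave 42 of the 36161 genes measured. Each gene was read from its brightest probe, so a level is that of 1 stretch of 60 bases and not of a whole gene.

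The study compared stages of mouse muscle formation on 23 one-colour Agilent arrays, of which 21 samples in 7 groups of 3 entered the comparisons. Embryonic stem cells came from 129 substrains, namely 129Sv for replicate 1, 129X1/SvJ for replicate 2 and 129/Ola for replicate 3 (the E14tg2 line, whose 2 arrays were averaged). Primary myoblasts were C57BL/6J cells, taken at passage 0 or after proliferation to passages 8 to 10, grown in Ham's F-10 medium with foetal bovine serum and basic fibroblast growth factor on collagen. Myotubes were C57BL/6J cells kept for 1, 2 or 4 days in DMEM with horse serum on Matrigel.

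The adult group was whole quadriceps muscle, with replicate 1 from the C57BL/6J strain and replicates 2 and 3 from 129Sv/C57BL/6J mice. One array of NOD/ShiLtj skeletal muscle stood alone and entered no comparison. The labels call the animals and cells male, except for E14tg2, whose sex they do not give. Stem cells and cultured cells therefore differ in strain as well as in stage, and strain and stage cannot be told apart in that step. The step from myotubes to quadriceps is mixed with strain in part, through quadriceps replicates 2 and 3. The labels do not say whether replicates are separate animals or cultures, so the p-values below measure only the spread between these samples. The sample titles also carry a number, the title number below, that proliferating and differentiating samples of the same replicate share. The labels do not say what it marks.

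In a sarcomere, thin actin filaments are anchored at the Z disc, where alpha-actinin cross-links them, and thick myosin filaments are cross-linked at the M band by myomesins. Titin runs from the Z disc to the M band as an elastic ruler, nebulin runs along the thin filament, and tropomodulins and leiomodins act at the thin filament's free end. Desmin ties neighbouring Z discs to each other and to the membrane, and the titin-bound calpain, ubiquitin ligases and ankyrin repeat proteins are known for roles in turnover and in the response to stretch.

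Levels are log2 values of the processed signal after subtraction of each array's 75th percentile, so that 0 is the 75th percentile of an array and 1 unit is a 2-fold change in signal. Values in 3 samples are given in the order replicate 1, 2 and 3. Tests were limited to genes whose signal passed the scanner's background flag throughout at least 1 group of a pair, and a gene was called higher or lower at a limma adjusted p below 0.05 (Benjamini-Hochberg over all genes tested) with a change of at least 2-fold. Because no probe's brightness can be set against another's, levels are compared between samples and never between genes.

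Some samples stood apart. The 75th percentile of the signal was 87.67 on the array of proliferating replicate 1 and lay between 207.6 and 764.8 on the others. That sample had the highest level of its group for 31 of the 42 members, and the median member level was 2.03, 1.43 and 0.59 in the 3 proliferating samples. Day-1 replicate 3 was the highest of its group for 30 members. The same shares over all genes are not given here, so these counts do not separate the members from the whole array. Of 6 pluripotency genes, 5 were called lower and 1 higher in proliferating myoblasts than in stem cells. Only 2 were tested on days 2 and 4 against proliferating myoblasts, and 1 was called higher on both days. The summed level of the 6 genes was 9.50 to 9.72 in stem cells against -0.34 to 4.08 in the other groups. That of 5 myoblast genes was 6.76 to 8.29 in the passage-0, proliferating and day-1 cultures, and it did not separate them from the later myotubes, at 7.54 to 7.94 on day 2 and 6.71 to 7.39 on day 4, whereas it was 3.36 to 4.35 in quadriceps. Single myoblast genes did change: of 4 tested against proliferating myoblasts, 1 was called higher and 2 lower on day 2. On day 4, 0 were called higher and 3 lower. Myoblast cultures already carried myotube markers. The summed level of 6 early myotube genes was 8.87 to 9.98 in proliferating samples, against 1.05 to 1.53 in stem cells and 11.33 to 11.61 on day 1. All 6 were above background in every proliferating sample, but 4 of them were so in every stem cell sample too.

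Most of the scaffold rose within the first days of differentiation. Against proliferating myoblasts, 17 of the 39 members tested were higher on day 1, 33 of 41 on day 2 and 35 of 41 on day 4. Of all genes tested, 5.91% were called higher on day 1, 15.1% on day 2 and 14.4% on day 4. No member was lower on day 1 by limma (0 at an unadjusted p under 0.05), and 1, Pdlim7, was lower on days 2 and 4, where 3.25%, 9.97% and 10.2% of all genes tested were lower on days 1, 2 and 4. The median log2 change of the members tested was 1.80, 3.27 and 3.77 on the 3 days, and that of all genes tested was -0.04, 0.09 and 0.03. With slides compared one at a time, each holding 1 sample per group, the median member change on day 1 was 0.62 on the slide of proliferating replicate 1, and 2.21 and 2.42 on the others.

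**Figure D1:**
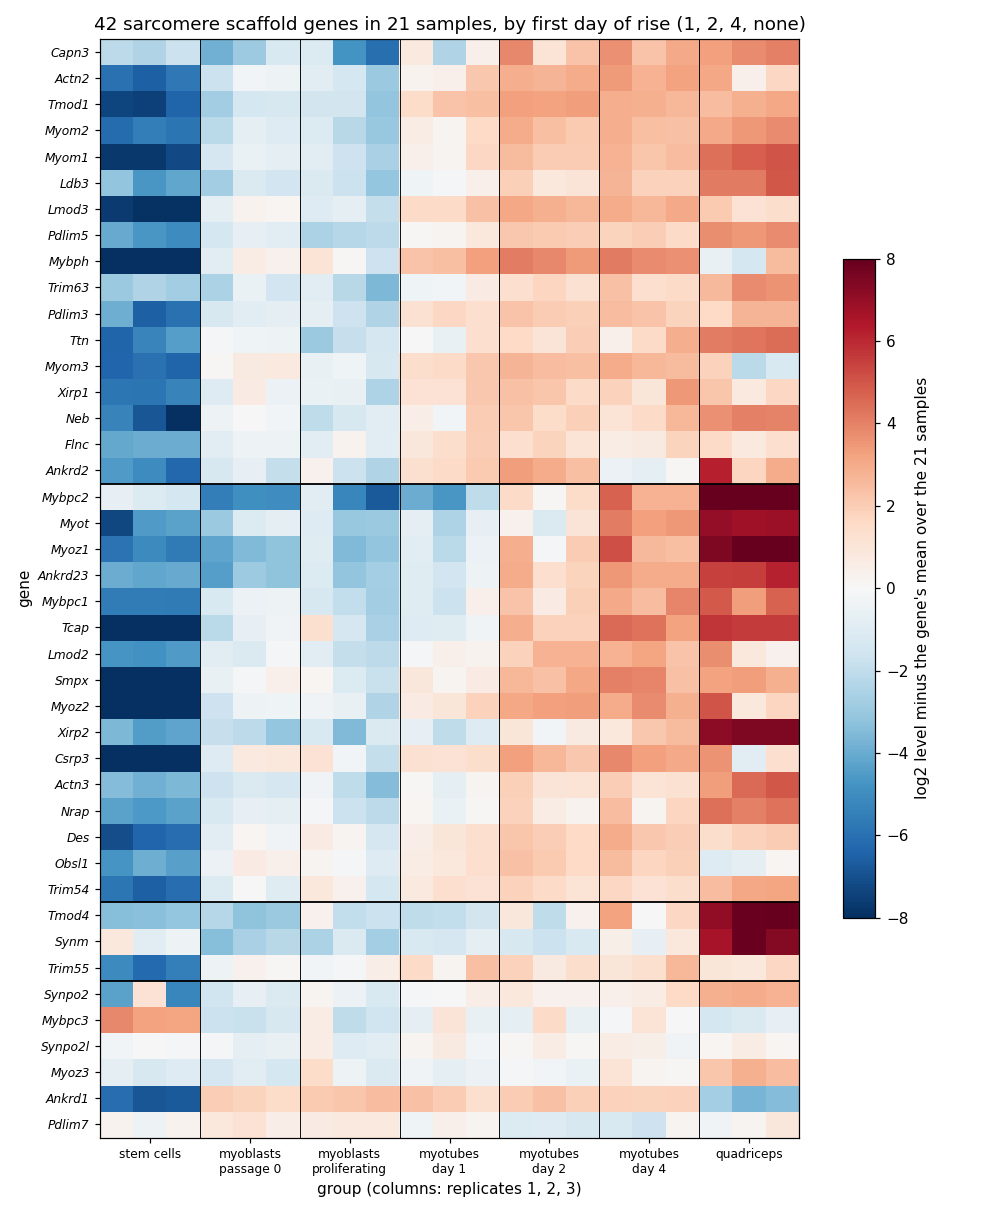
Levels of the 42 genes (one line each) in the 21 samples (one column each), as the log2 level minus the gene's mean over all samples, with genes ordered by the first day of rise and colours clipped at the ends of the scale. Stem cell columns are low for most genes, levels climb from the myoblast to the day-2 columns, and quadriceps has the highest group mean for 25 of the 42 genes. The share of all genes that do so is not given here, so this count only describes the members.

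Ordered by the first day on which a gene was called above proliferating myoblasts, 17 members rose first on day 1, 16 on day 2 and 3 on day 4, and 6 were never called. The day-1 genes were Ttn, Neb, Myom1, Myom2, Myom3, Actn2, Ldb3, Pdlim3, Pdlim5, Flnc, Xirp1, Tmod1, Lmod3, Mybph, Capn3, Trim63 and Ankrd2. The day-2 genes were Obsl1, Actn3, Tcap, Myoz1, Myoz2, Myot, Csrp3, Des, Xirp2, Nrap, Smpx, Lmod2, Mybpc1, Mybpc2, Trim54 and Ankrd23. Synm, Tmod4 and Trim55 were first called on day 4, and Myoz3, Pdlim7, Synpo2, Synpo2l, Mybpc3 and Ankrd1 were not called higher on any day. The split between days 1 and 2 is less firm than the sum: the day-1 count was 23 without proliferating replicate 1, 9 without proliferating replicate 3 and 7 without day-1 replicate 3. When only the 2 groups compared entered the fit it was 0, and so was the count over all 19139 genes tested on day 1. The counts on days 2 and 4 without proliferating replicate 1 were 34 and 36. Ankrd2 moved to day 2 without proliferating replicate 2 or 3, without any one of the day-1 samples, with quantile normalization or with no filter. Capn3 moved to day 2 without proliferating replicate 2 or 3, without day-1 replicate 1 or 3, with no filter or with the mean of probes. Myom1, Myom2, Pdlim3, Pdlim5, Flnc, Tmod1 and Lmod3 stayed at day 1 whichever single sample was left out.

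Steps between neighbouring days called few members. From day 1 to day 2, 6 of 41 tested members rose (Tcap, Pdlim5, Smpx, Mybpc1, Mybpc2 and Ankrd23) and none was called lower by limma (1 at an unadjusted p under 0.05), with 0.583% and 2.16% of all genes tested called higher and lower. That count was 1 without day-1 replicate 1, 2 without day-1 replicate 2, and 2 without day-2 replicate 1 or replicate 3. With the title number as a block it was 1. From day 2 to day 4, no member of 41 was called by limma in either direction, where 0.259% and 0.0619% of all genes tested were called higher and lower, and 9 members had an unadjusted p under 0.05. The median member change was 1.30 from day 1 to day 2 and 0.26 from day 2 to day 4.

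The base sequence just upstream of the start of transcription is shown for 5 members with different timing in the fit: Mybph and Trim63 rose first on day 1, Myoz2 on day 2, Ankrd1 was not called on any day, and Mybpc3, mostly at background, was not tested. The first day of 3 of them is not firm. Mybph moved to day 2 without proliferating replicate 2 or 3, without any one of the day-1 samples, with no filter or with only the 2 groups in the fit. Trim63 moved to day 2 without proliferating replicate 3, without day-1 replicate 3, with the title number as a block or with only the 2 groups in the fit. Myoz2 moved to day 1 with normexp or the slide block. Windows of 250 bases before the start came from RefSeq on GRCm38.p6 and were matched by symbol for 32 of the 42 members. Capitals mark letters of muscle-gene motifs, searched on both strands: the E boxes CAGCTG and CACCTG, which bind the MyoD family, the MCAT motif CATTCC, which binds TEAD factors, the MEF2 site and the CArG box by their consensus, and TATAAA.
Mybph: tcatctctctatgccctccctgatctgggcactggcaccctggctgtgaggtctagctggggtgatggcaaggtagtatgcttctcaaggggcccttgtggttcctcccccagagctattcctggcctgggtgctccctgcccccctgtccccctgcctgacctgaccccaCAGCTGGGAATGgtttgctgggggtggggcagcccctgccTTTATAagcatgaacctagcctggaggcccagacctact
Trim63: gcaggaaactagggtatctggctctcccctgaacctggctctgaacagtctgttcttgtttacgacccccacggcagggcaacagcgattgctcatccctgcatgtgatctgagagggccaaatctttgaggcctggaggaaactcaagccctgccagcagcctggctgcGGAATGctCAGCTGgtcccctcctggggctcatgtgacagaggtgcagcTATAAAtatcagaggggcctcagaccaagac
Myoz2: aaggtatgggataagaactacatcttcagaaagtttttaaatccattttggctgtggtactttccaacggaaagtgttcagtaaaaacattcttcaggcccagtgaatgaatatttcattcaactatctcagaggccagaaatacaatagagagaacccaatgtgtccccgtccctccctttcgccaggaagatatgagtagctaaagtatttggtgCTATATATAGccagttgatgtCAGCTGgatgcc
Mybpc3: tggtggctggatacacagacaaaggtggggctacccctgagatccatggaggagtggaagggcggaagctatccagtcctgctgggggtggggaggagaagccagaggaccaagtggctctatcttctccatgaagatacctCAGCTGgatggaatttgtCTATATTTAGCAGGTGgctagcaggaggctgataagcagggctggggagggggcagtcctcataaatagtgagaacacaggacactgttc
Ankrd1: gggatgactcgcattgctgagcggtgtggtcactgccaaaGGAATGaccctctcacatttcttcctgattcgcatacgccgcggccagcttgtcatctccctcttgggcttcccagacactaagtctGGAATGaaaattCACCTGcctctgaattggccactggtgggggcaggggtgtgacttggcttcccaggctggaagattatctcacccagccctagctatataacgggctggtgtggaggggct
The windows lie, on GRCm38.p6, for Mybph at chr1:134193198-134193447 on the plus strand, for Trim63 at chr4:134314870-134315119 on the plus strand, for Myoz2 at chr3:123034988-123035237 on the minus strand, for Mybpc3 at chr2:91117894-91118143 on the plus strand and for Ankrd1 at chr19:36119845-36120094 on the minus strand, each ending at the base before the annotated start.

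In Mybph the E box began 79 bases before the start, the MCAT letters 73 and TATAAA 39, so that the first pair of motifs touched. Trim63 held the same 3 motifs at 80 (MCAT), 72 (E box) and 31 bases (TATAAA). The Myoz2 window held a MEF2 site at 33 bases and an E box at 12. Mybpc3, which was not tested on any day, held an E box at 108 bases, a MEF2 site at 90 and the CACCTG form at 80. Ankrd1 held MCAT letters at 210 and 123 bases and CACCTG at 111. Of the 32 members with a window, 12 (37.5%) held CAGCTG, against 14.7% of all 27025 genes in the table. CACCTG was in 13 (40.6%) against 19.4%, CATTCC in 9 (28.1%) against 14.4%, the MEF2 site in 8 (25%) against 3.42%, the CArG box in 2 (6.25%) against 1.62% and TATAAA in 5 (15.6%) against 14.3%. In Synpo2 the TATAAA match overlapped the MEF2 match. These matches describe letters in a window and say nothing of binding. By first day of rise, CAGCTG was in 4 of the 13 windows of day-1 genes, 6 of 12 of day-2 genes and 2 of 5 of genes without a rise.

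Among the giant filaments and the M band, all 6 members were higher than in proliferating myoblasts on days 2 and 4, and 5 of 6 on day 1. Titin (Ttn) was at 1.54, 2.64 and 3.17 in proliferating myoblasts, 4.45, 3.92 and 5.87 on day 1, 4.94, 6.01 and 7.42 on day 4 and 8.62, 8.80 and 8.95 in quadriceps. Every day-1 sample lay above every proliferating sample, and every quadriceps sample above every day-4 sample. The day-4 change was 3.68 ± 0.62 (SE, 12.8-fold, limma adjusted p = 0.00028) and the step to quadriceps was 2.66 ± 0.62 (SE, 6.34-fold, limma adjusted p = 0.0028). Of 4 Ttn probes, 2 were called higher on day 1, 3 on day 2, 3 on day 4 and 2 in quadriceps against day 4. Nebulin (Neb) moved in the same order, from 3.49, 4.26 and 4.69 in proliferating myoblasts to 7.72, 6.98 and 7.40 on day 2 and 9.19, 9.57 and 9.47 in quadriceps. Its change was 3.22 ± 0.61 (SE, 9.3-fold, limma adjusted p = 0.00075) on day 2 and 2.14 ± 0.61 (SE, 4.4-fold, limma adjusted p = 0.011) from day 4 to quadriceps. The day-1 calls of both genes were lost without proliferating replicate 1, with a log2 change of 1.85 for each, and without day-1 replicate 3 (1.74 and 1.56). With quantile normalization, the authors' values or only the 2 groups in the fit, both genes rose first on day 2. The day-1 call of Neb was also lost without proliferating replicate 2 (2.24) or day-1 replicate 1 (2.31), with no filter or with the mean of probes. Its quadriceps call was lost without day-4 replicate 1 (1.81).

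The myomesins, which cross-link thick filaments, parted ways in adult muscle. Myom2 was at 4.84, 3.72 and 2.94 in proliferating myoblasts, 6.56, 6.19 and 7.53 on day 1, 8.92, 8.35 and 8.05 on day 2, and 8.84, 8.34 and 8.27 on day 4. The quadriceps mean was 9.38 ± 0.36 (SD, n = 3). Its groups did not overlap from proliferation to day 2, and its day-4 change was 4.65 ± 0.48 (SE, 25.1-fold, limma adjusted p = 4.3e-06). The step to quadriceps, 0.89 ± 0.48 (SE, 1.86-fold, limma adjusted p = 0.17), was not called, although its samples lay above all day-4 samples. Myom1 rose at both steps, by 4.20 ± 0.43 (SE, 18.4-fold, limma adjusted p = 4.3e-06) on day 4 and by 2.27 ± 0.43 (SE, 4.84-fold, limma adjusted p = 0.00048) in quadriceps.

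Myom3, a myomesin known from slow and intermediate fibres, and Obsl1, an obscurin-like protein of the M band, rose in culture and were lower in quadriceps. Myom3 was at 3.74, 3.95 and 3.06 in proliferating myoblasts, 7.27, 6.94 and 6.84 on day 4 and 6.17, 2.15 and 3.10 in quadriceps. Its day-4 change was 3.43 ± 0.66 (SE, 10.8-fold, limma adjusted p = 0.00078), and it fell from day 4 to quadriceps by 3.21 on the log2 scale (SE 0.66, 9.26-fold, limma adjusted p = 0.0009). Quadriceps replicate 1, the C57BL/6J sample, was 3.54 above the mean of the other pair but still below every day-4 sample. Obsl1 was at 5.10, 4.73 and 3.90 in proliferating myoblasts, 7.46, 6.64 and 6.81 on day 4 and 3.85, 4.12 and 5.04 in quadriceps. The last 2 groups did not overlap, and it fell from day 4 to quadriceps by 2.63 (6.2-fold, limma adjusted p = 0.0001). A second Obsl1 probe was not called on any of the 3 days and fell by 3.40 in quadriceps.

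**Figure D2:**
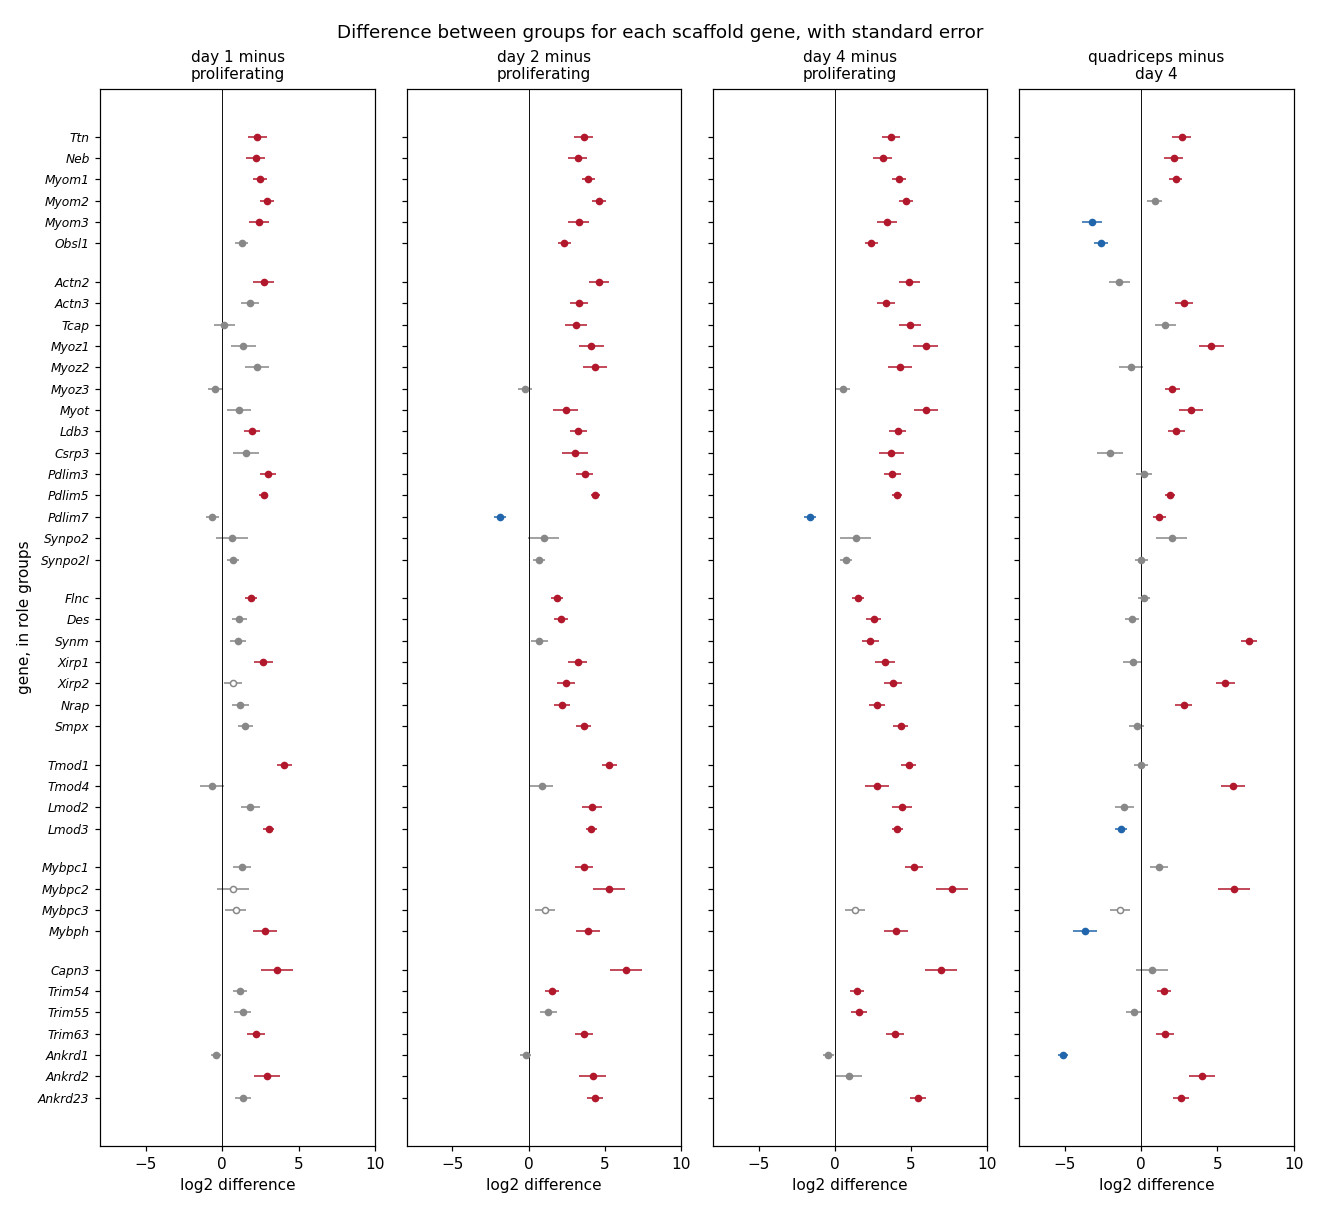
Log2 difference with its standard error for each gene on days 1, 2 and 4 against proliferating myoblasts and in quadriceps against day 4. Red points were called higher, blue lower and grey not called, and open points were not tested: Pdlim7 is the gene in blue on days 2 and 4, and 5 genes are blue in quadriceps.

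Of the 14 Z disc members, 4 were higher on day 1, 10 on day 2 and 10 on day 4, and 7 were higher in quadriceps than on day 4. The alpha-actinins cross-link thin filaments, and Actn3 is the form of fast fibres. Actn2 was at 3.54, 3.04 and 1.44 in proliferating myoblasts, 7.84, 7.19 and 7.66 on day 4 and 7.51, 4.83 and 6.07 in quadriceps. Its day-4 change was 4.89 ± 0.66 (SE, 29.6-fold, limma adjusted p = 3.5e-05). Of 2 Actn2 probes, 1 was called higher on days 1 and 2, and 2 on day 4. With the mean of probes Actn2 rose first on day 2. From day 4 to quadriceps it was not called, at -1.42 (limma adjusted p = 0.1), and without quadriceps replicate 1 it fell by 2.11. Actn3 was at 5.26, 3.51 and 2.12 in proliferating myoblasts, 7.55, 6.67 and 6.81 on day 4 and 8.91, 10.09 and 10.53 in quadriceps. All quadriceps samples were above all day-4 samples, a step of 2.83 ± 0.59 (SE, 7.13-fold, limma adjusted p = 0.0011).

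Telethonin (Tcap), which caps the end of titin in the Z disc, changed late. It stood at 6.13, 3.55 and 2.26 in proliferating myoblasts, where replicate 1 was far above the others, and at 3.86, 3.93 and 4.58 on day 1, inside that range. On day 2 it was at 7.78, 6.74 and 6.70 and on day 4 at 9.42, 9.19 and 8.10, above all proliferating samples. The change was 3.10 ± 0.71 (SE, 8.55-fold, limma adjusted p = 0.0031) on day 2 and 4.92 ± 0.71 (SE, 30.4-fold, limma adjusted p = 6.3e-05) on day 4. Quadriceps, at 10.57, 10.47 and 10.44, was not called against day 4 (limma adjusted p = 0.093).

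The calsarcins (Myoz1, Myoz2, Myoz3) bind alpha-actinin and the phosphatase calcineurin, and myotilin (Myot) binds alpha-actinin and filamin C. Myoz1 was at 0.25, -2.31 and -1.93 in proliferating myoblasts, 4.09, 1.04 and 3.24 on day 2, 6.40, 3.78 and 3.63 on day 4 and 8.67, 9.40 and 9.55 in quadriceps. It rose by 5.94 ± 0.82 (SE, 61.2-fold, limma adjusted p = 4.6e-05) on day 4 and by a further 4.60 ± 0.82 (SE, 24.3-fold, limma adjusted p = 0.00027) in quadriceps. Myot was at 0.16, -1.86 and -1.79 in proliferating myoblasts, 1.56, 0.07 and 2.20 on day 2, 5.32, 4.49 and 4.65 on day 4 and 8.22, 8.00 and 8.03 in quadriceps. On day 2 its samples overlapped those of proliferating myoblasts, and on day 4 they did not. The Myot change was 5.98 ± 0.81 (SE, 63.3-fold, limma adjusted p = 3.6e-05) on day 4, the largest among Z disc members, and 3.26 ± 0.81 (SE, 9.58-fold, limma adjusted p = 0.0041) in quadriceps. Myoz2, a calsarcin of slow and cardiac muscle, rose by 4.35 ± 0.78 (SE, 20.3-fold, limma adjusted p = 0.00045) on day 2, and in quadriceps it read 6.72, 2.55 and 3.40 against 4.66, 5.45 and 4.56 on day 4. Only replicate 1 of quadriceps was above the day-4 samples, the step was not called, and without that sample it fell by 1.92.

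Csrp3, a LIM protein linking the Z disc to signalling, showed the same split. It was at 3.68, 2.27 and 0.59 in proliferating myoblasts, 6.32, 5.79 and 5.55 on day 4 and 6.08, 1.69 and 3.84 in quadriceps. The day-4 change was 3.71 ± 0.85 (SE, 13.1-fold, limma adjusted p = 0.0033). In quadriceps the change was -2.02 (limma adjusted p = 0.077), and without replicate 1 it fell by 3.12. Ldb3, a PDZ-LIM protein that binds alpha-actinin, had no such split: it rose by 4.11 ± 0.54 (SE, 17.2-fold, limma adjusted p = 3e-05) on day 4 and by 2.31 ± 0.54 (SE, 4.95-fold, limma adjusted p = 0.0028) in quadriceps. Pdlim3, of the same family, rose by 2.99 ± 0.55 (SE, 7.92-fold, limma adjusted p = 0.002) on day 1 and was not called in quadriceps against day 4.

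Pdlim7, Synpo2 and Synpo2l did not follow the others. Pdlim7 (Enigma, a PDZ-LIM protein) was at 4.61, 4.74 and 4.70 in proliferating myoblasts, 3.59, 4.34 and 4.18 on day 1, 2.86, 2.89 and 2.66 on day 2, 2.71, 2.30 and 4.16 on day 4 and 3.68, 4.16 and 4.87 in quadriceps. Every differentiating sample was below every proliferating one, and it fell by 1.88 on day 2 (3.69-fold, limma adjusted p = 0.0028) and by 1.63 on day 4 (3.09-fold, limma adjusted p = 0.0078). The day-4 call was lost without day-4 replicate 2, at -1.25. It rose by 1.18 ± 0.42 (SE, 2.27-fold, limma adjusted p = 0.039) from day 4 to quadriceps, with overlapping samples, and this call was lost without either of quadriceps replicates 2 and 3 or day-4 replicates 1 and 2, with changes of 0.80 to 1.22. Synpo2 (myopodin) and Synpo2l, actin-binding proteins of the Z disc, were not called on any day or in quadriceps. Synpo2 was nonetheless at -0.82, -0.62 and 0.36 on day 4 and 1.64, 1.71 and 1.58 in quadriceps, without overlap. This change of 2.00 had a limma adjusted p of 0.14, and was called with normexp (1.68, limma adjusted p = 0.023), the authors' values (1.86, 0.0063), the mean of probes (2.31, 0.0011) and only the 2 groups in the fit (2.00, 0.008), and 1 of its 3 probes was called higher. Without proliferating replicate 1, Synpo2l was called higher on all 3 days (limma adjusted p = 0.036, 0.015 and 0.013). Its levels were 3.98, 4.18 and 3.99 in stem cells, 4.80, 4.65 and 3.92 on day 4 and 4.36, 4.75 and 4.32 in quadriceps.

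The probes of single genes did not always move together, and 3 genes are shown with the first 30 bases of each 60-base probe. The sequences come from the array's own annotation, placed on mm9, and are given because each reads another stretch of the gene.
Pdlim5 probe 1: gcagctagcacatacctttcattcacgttt
Pdlim5 probe 2: tacacaaaattacgtgactggcaccatgaa
Pdlim5 probe 3: aatgatggcgtttcgtgttttcttcgtttc
Pdlim7 probe 1: tcactggtgctggcctagccccagttcact
Pdlim7 probe 2: tgaatattgacggtgagaacgcgggcagcc
Pdlim7 probe 3: tctgagccttcttgccagctgtttgttgtt
Neb probe 1: gaagcctgggacaaagacaagacccagatc
Neb probe 2: ttaaggatggagatgctatagtgaatgctc
Neb probe 3: ttgttgtccctggctttatatattgctctt
On mm9, Pdlim5 had probe 1 at chr3:141966207-141966266, probe 2 at chr3:141966292-141966351 and probe 3 at chr3:141904328-141904387, all on the minus strand. On mm9, Pdlim7 had probe 1 at chr13:55599777-55599836, probe 2 at chr13:55610290-55610349 and probe 3 at chr13:55598956-55599015, all on the minus strand. On mm9, Neb had probe 1 at chr2:52097549-52097608, probe 2 at chr2:51992837-51992896 and probe 3 at chr2:51980409-51980468, with the first pair on the minus strand and the third on the plus strand.

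Pdlim5 (ENH) has long forms with LIM domains and short forms without them. Probes 1 and 2, which the annotation places on transcript NM_019809, rose on day 2 by 4.38 and 4.33 (20.8-fold and 20.2-fold), with limma adjusted p of 3.8e-07 and 5.2e-07 over all probes. Probe 3, on NM_001190852, was at -0.87 ± 0.36 in proliferating myoblasts and -3.90 ± 1.29 on day 2 (SD, n = 3), and fell by 3.04 (8.2-fold, limma adjusted p = 0.0016). On day 4 it fell by 2.70, and from day 4 to quadriceps it was not called, while probes 1 and 2 rose by 1.90 and 1.79. The probe 3 signal was above background in 2 day-2 samples and 1 day-4 sample.

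For Pdlim7, probes 1 and 3, both on NM_001114088, fell on day 2 by 1.88 and 1.97. Probe 2, near the start of NM_026131, was not called on day 2, at 1.28 ± 0.47 (SE, limma adjusted p = 0.055). In quadriceps all 3 probes were higher than on day 4, by 1.18, 1.98 and 1.74. Nebulin's probes 1 and 2 rose on every day, while probe 3, on the clone sequence AK081133, lies on the opposite strand of the genome. Probe 3 was at -0.70 ± 0.71 in stem cells and -3.34 ± 0.56 in proliferating myoblasts (SD, n = 3), fell by 2.65 between them (6.26-fold, limma adjusted p = 0.0012), and was above background in no quadriceps sample.

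Myoz3's brighter probe was not called on any day, but its second probe, farther along the same transcript, was above background in 0 of 3 proliferating samples and in all 3 samples from day 2 on. That second probe was at -1.97 ± 1.11 on day 2, 0.66 ± 0.48 on day 4 and 5.34 ± 0.45 in quadriceps (SD, n = 3). Its step from day 4 to quadriceps was 4.68 ± 0.73 (SE, 25.6-fold, limma adjusted p = 7.4e-05), and that of the brighter probe was 2.05 ± 0.49 (SE, 4.15-fold, limma adjusted p = 0.0032). Counting Myoz3 among the genes that did not rise thus rests on the choice of probe. With the mean of its probes, the Myoz3 change on day 2 was 1.72 in place of -0.24.

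**Figure D3:**
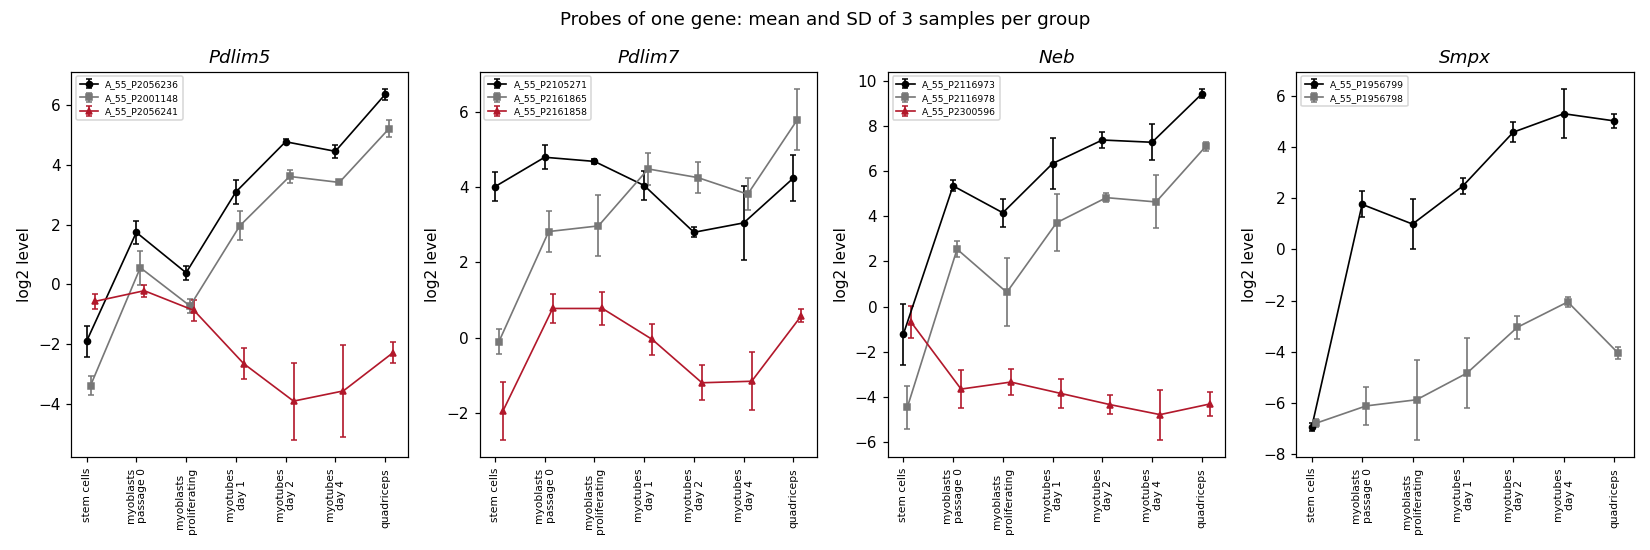
Mean log2 level with its SD (n = 3) of each probe of Pdlim5, Pdlim7, Neb and Smpx across the 7 groups. One probe of Pdlim5 goes down where the others go up, and one probe of Neb is highest in stem cells.

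In the desmin network and costamere, 2 of 6 tested members were higher on day 1, 6 of 7 on day 2 and 7 of 7 on day 4, and 3 of 7 rose again in quadriceps. Desmin (Des), the muscle intermediate filament, was at 6.04, 5.63 and 4.05 in proliferating myoblasts, 8.37, 7.56 and 7.41 on day 4 and 6.84, 7.26 and 7.42 in quadriceps. Its day-4 change was 2.54 ± 0.47 (SE, 5.82-fold, limma adjusted p = 0.00056), and its quadriceps samples overlapped the day-4 ones, with no call. Synemin (Synm), which joins desmin in these filaments, behaved differently. It was at -0.47, -2.24 and -1.71 in stem cells, -3.85, -2.47 and -4.03 in proliferating myoblasts, -2.63, -3.05 and -2.54 on day 2, -0.85, -2.00 and -0.51 on day 4 and 5.28, 6.55 and 6.03 in quadriceps. Its day-4 change was 2.33 ± 0.53 (SE, 5.03-fold, limma adjusted p = 0.0031), against a proliferating group in which 1 of 3 samples was not above background, and the step to quadriceps, 7.07 ± 0.53 (SE, 135-fold, limma adjusted p = 2.5e-08), was the largest of all members. All 5 Synm probes were called higher in quadriceps, with changes of 6.67 to 7.07.

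Xirp2, a Xin-repeat protein that binds actin at the costamere, was likewise low in culture. Its levels were -3.64, -5.97 and -3.60 in proliferating myoblasts, where only replicate 3 was above background, -1.57, -0.28 and 0.09 on day 4 and 4.72, 5.05 and 5.04 in quadriceps. The step to quadriceps was 5.52 ± 0.60 (SE, 46-fold, limma adjusted p = 1.6e-06). Its relative Xirp1 rose by 2.68 ± 0.63 (SE, 6.42-fold, limma adjusted p = 0.011) on day 1, a call lost without proliferating replicate 3 (2.06) or day-1 replicate 3 (2.34), and was not called in quadriceps against day 4. Nrap, which acts as a scaffold in myofibril assembly, rose by 2.19 ± 0.55 (SE, 4.56-fold, limma adjusted p = 0.0065) on day 2 and by 2.79 ± 0.55 (SE, 6.92-fold, limma adjusted p = 0.00071) in quadriceps. Only 1 of its 2 probes was called at these steps and on day 4, and with the mean of probes Nrap rose first on day 4.

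Filamin C (Flnc), the muscle filamin, rose first on day 1 and no further: it was at 4.88, 6.02 and 4.86 in proliferating myoblasts, 6.63, 7.12 and 7.70 on day 1, 6.33, 6.43 and 7.50 on day 4 and 7.24, 6.52 and 7.10 in quadriceps. The day-1 change was 1.90 ± 0.40 (SE, 3.73-fold, limma adjusted p = 0.0053). Smpx, a small protein of the costamere, was at 2.05, 0.82 and 0.08 in proliferating myoblasts, 2.76, 2.13 and 2.54 on day 1, 5.94, 5.76 and 4.21 on day 4 and 5.10, 5.25 and 4.71 in quadriceps. It rose by 4.32 ± 0.49 (SE, 20-fold, limma adjusted p = 7.5e-06) on day 4, and no change in quadriceps was called for this probe. A second Smpx probe, on another transcript, was above background in all 3 samples on day 2 and on day 4 and in no quadriceps sample, and it was called lower in quadriceps than on day 4 (limma adjusted p = 0.027).

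At the pointed end of the thin filament, 2 of 4 members were higher on day 1, 3 on day 2 and 4 on day 4. Tropomodulin 1 (Tmod1) had the largest day-1 change of all members. It was at -0.72, -0.73 and -2.46 in proliferating myoblasts, 2.19, 2.99 and 3.11 on day 1, 3.64, 3.59 and 3.38 on day 4 and 3.19, 3.54 and 3.84 in quadriceps. All samples of day 1 and later lay above all proliferating samples. The day-1 change was 4.07 ± 0.48 (SE, 16.8-fold, limma adjusted p = 6.4e-05), and quadriceps did not differ by a call from day 4, at -0.02.

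Tropomodulin 4 (Tmod4), the form of fast skeletal fibres, came late. It was at 0.58, -1.76 and -1.48 in proliferating myoblasts, -1.78, -1.71 and -1.24 on day 1, 3.47, 0.25 and 1.89 on day 4 and 7.32, 8.14 and 8.24 in quadriceps. One day-4 sample, replicate 2, lay within the proliferating range. The day-4 change was 2.76 ± 0.77 (SE, 6.76-fold, limma adjusted p = 0.013), which was lost without day-4 replicate 1 (1.96) or proliferating replicate 2 (2.32), and the step to quadriceps was 6.03 ± 0.77 (SE, 65.4-fold, limma adjusted p = 9.1e-06).

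Leiomodins extend the thin filament from this end. Lmod3 was at 4.06, 4.28 and 3.19 in proliferating myoblasts, 6.61, 6.60 and 7.44 on day 1, 8.01, 7.75 and 8.07 on day 4 and 7.15, 6.24 and 6.48 in quadriceps. It rose by 3.04 ± 0.37 (SE, 8.21-fold, limma adjusted p = 8.7e-05) on day 1 and fell from day 4 to quadriceps by 1.32 (2.49-fold, limma adjusted p = 0.0098). That fall was not called without quadriceps replicate 2, at -1.13. Lmod2 rose by 4.15 ± 0.63 (SE, 17.7-fold, limma adjusted p = 0.0001) on day 2, with 1 of the 3 proliferating samples not above background. Its quadriceps levels were 1.67, -1.22 and -1.70 against 0.74, 1.08 and 0.22 on day 4, not called, and it fell by 2.14 without replicate 1.

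The 4 thick filament binding proteins each followed another course. Mybpc1, the slow form of myosin-binding protein C, was at 2.20, 1.48 and 0.69 in proliferating myoblasts, 5.74, 4.12 and 5.36 on day 2, 6.54, 5.95 and 7.39 on day 4 and 8.37, 6.84 and 8.21 in quadriceps. It rose by 5.17 ± 0.59 (SE, 36-fold, limma adjusted p = 7.6e-06) on day 4 and was not called in quadriceps against day 4. Mybpc2, the fast form, was at -0.96, -5.38 and -6.82 in proliferating myoblasts, where only replicate 1 was above background, and at -4.09, -4.77 and -2.19 on day 1, where only replicate 3 was. It then reached 1.37, -0.01 and 1.35 on day 2, 4.61, 2.65 and 2.67 on day 4 and 8.57, 9.61 and 9.93 in quadriceps. Every day-4 sample lay above every proliferating sample, and the day-4 difference was called (limma adjusted p = 3.9e-05), but its size has no firm value because 2 of the 3 proliferating samples were not above background. The step to quadriceps was 6.06 ± 1.05 (SE, 66.7-fold, limma adjusted p = 0.00019).

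Mybpc3, the cardiac form, was above background in all stem cell samples, at -0.54, -1.17 and -1.27, in replicate 2 on each of days 1, 2 and 4, and in no other sample of the 7 groups. It was therefore not tested in any step after stem cells. Mybph, a smaller relative, was at 6.20, 5.23 and 3.46 in proliferating myoblasts, 9.26, 8.87 and 8.74 on day 4 and 4.50, 3.68 and 7.66 in quadriceps. It rose by 3.99 ± 0.79 (SE, 15.9-fold, limma adjusted p = 0.0011) on day 4 and fell from day 4 to quadriceps by 3.68 (12.8-fold, limma adjusted p = 0.0014). Replicate 3 of quadriceps was above the other pair and below the day-4 samples.

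**Figure D4:**
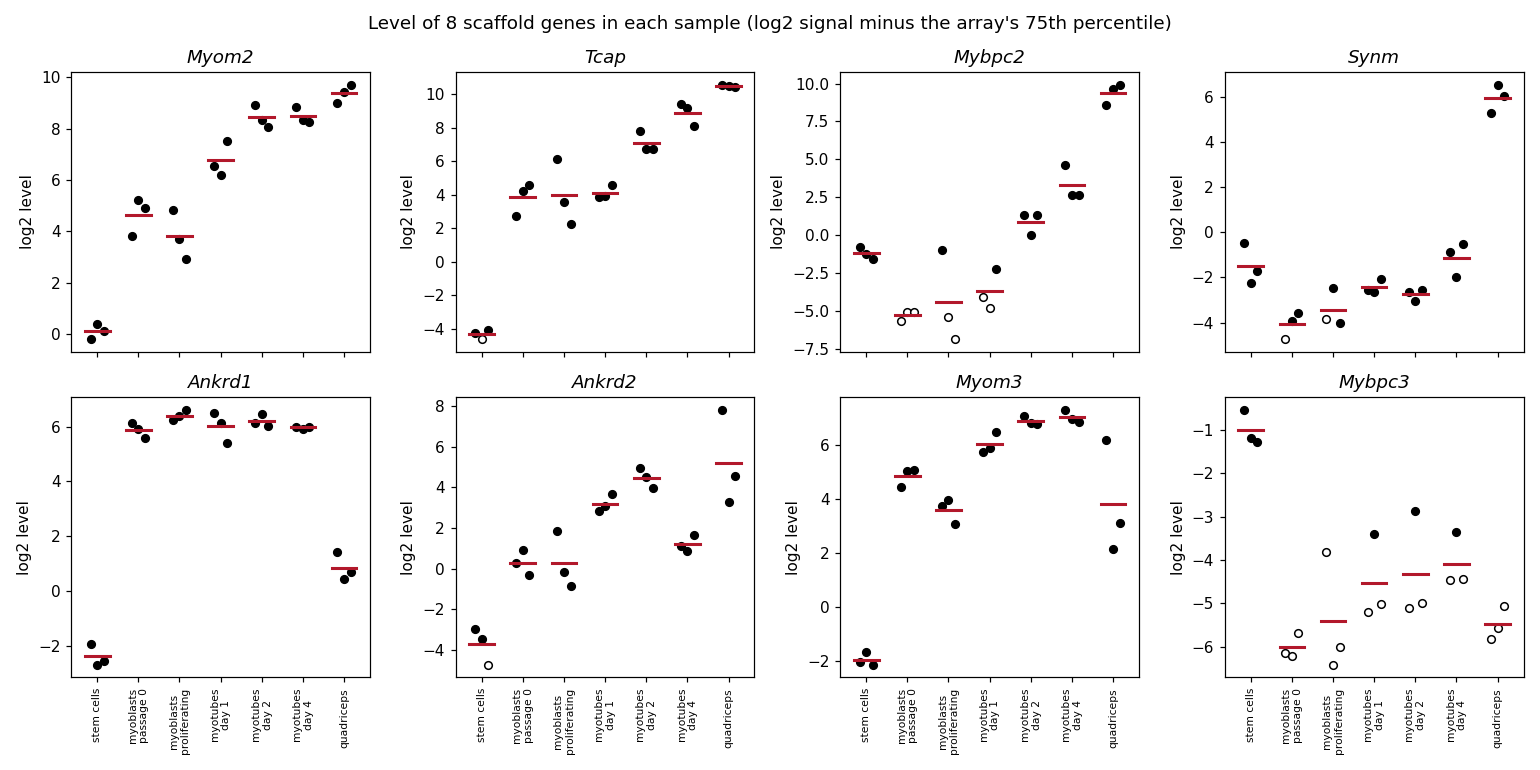
Log2 level in each sample of Myom2, Tcap, Mybpc2, Synm, Ankrd1, Ankrd2, Myom3 and Mybpc3 across the 7 groups, with open points not well above background and a red line at each group mean. Ankrd1 is high in all cultured muscle cells and low in stem cells and quadriceps, while Synm and Mybpc2 are highest in quadriceps.

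Of the 7 turnover and titin-linked signalling members, 3 were higher on day 1, 5 on day 2 and 5 on day 4, and in quadriceps 4 were higher and 1 lower than on day 4. Calpain 3 (Capn3), the protease held on titin, was at 1.31, -2.34 and -3.58 in proliferating myoblasts, 3.22, 0.04 and 2.82 on day 1, 6.25, 3.50 and 4.73 on day 2, 6.06, 4.72 and 5.44 on day 4 and 5.73, 6.21 and 6.43 in quadriceps. Proliferating replicate 1 overlapped the day-1 samples, and the samples of days 2 and 4 lay above all proliferating ones while overlapping each other. The day-2 change was 6.36 ± 1.05 (SE, 82.2-fold, limma adjusted p = 0.0002), and quadriceps was not called against day 4.

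The Trim54, Trim55 and Trim63 genes encode the MuRF ubiquitin ligases of the sarcomere. Trim63 was at 2.02, 0.68 and -0.73 in proliferating myoblasts, 5.19, 4.22 and 4.38 on day 4 and 5.44, 6.68 and 6.44 in quadriceps. It rose by 3.94 ± 0.59 (SE, 15.3-fold, limma adjusted p = 9.7e-05) on day 4 and by 1.59 ± 0.59 (SE, 3.01-fold, limma adjusted p = 0.047) in quadriceps, a call that was lost without any one of day-4 replicates 2 and 3 and quadriceps replicates 2 and 3 (1.34 to 1.48). Trim54 rose by 1.53 ± 0.47 (SE, 2.88-fold, limma adjusted p = 0.022) on day 2. That call was lost without proliferating replicate 3 (0.86), day-2 replicate 1 (1.35) or day-2 replicate 2 (1.50). Trim55 rose by 1.59 ± 0.54 (SE, 3.02-fold, limma adjusted p = 0.036) on day 4, a call lost without any one of 4 samples, with changes of 1.09 to 1.77.

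The ankyrin repeat proteins Ankrd1, Ankrd2 and Ankrd23 bind titin's spring region and had unlike courses. Ankrd1 (CARP) was at -1.94, -2.69 and -2.56 in stem cells, 6.12, 5.93 and 5.60 in passage-0 myoblasts, 6.24, 6.38 and 6.60 in proliferating myoblasts, 6.00, 5.93 and 6.00 on day 4 and 1.42, 0.43 and 0.69 in quadriceps. No day of differentiation was called against proliferating myoblasts, and it fell from day 4 to quadriceps by 5.13 (35.1-fold, limma adjusted p = 6e-09), with no overlap. Ankrd2 was at 1.88, -0.16 and -0.86 in proliferating myoblasts, 2.82, 3.10 and 3.67 on day 1, 4.94, 4.52 and 3.97 on day 2, 1.11, 0.86 and 1.67 on day 4 and 7.80, 3.29 and 4.56 in quadriceps. It rose by 4.19 ± 0.86 (SE, 18.3-fold, limma adjusted p = 0.0014) on day 2, but all day-4 samples were below all day-2 samples and the day-4 change was 0.93 (limma adjusted p = 0.5).

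The difference between days 4 and 2 itself, -3.27, was not called (limma adjusted p = 0.12), and the step from day 4 to quadriceps was 4.01 ± 0.86 (SE, 16.1-fold, limma adjusted p = 0.0014). Ankrd23 climbed at each stage, from 1.93, -0.12 and 0.31 in proliferating myoblasts to 5.98, 4.40 and 4.82 on day 2, 6.49, 5.99 and 5.97 on day 4 and 8.48, 8.57 and 9.20 in quadriceps. It rose by 5.44 ± 0.53 (SE, 43.5-fold, limma adjusted p = 2.7e-06) on day 4 and by 2.60 ± 0.53 (SE, 6.06-fold, limma adjusted p = 0.00086) in quadriceps.

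From day 4 to quadriceps, 19 of 41 tested members rose and 5 fell (Myom3, Obsl1, Lmod3, Mybph and Ankrd1), with a median member change of 1.18 against -0.06 over all genes tested. Of all genes tested, 14.7% were called higher and 16.3% lower. Markers of several other cell types were higher in whole muscle than in the cultures: the summed level of 5 fibroblast genes was 7.89 to 8.82 in quadriceps against 3.24 to 3.92 on day 4, that of 4 adipocyte genes 7.14 to 9.53 against -2.87 to -1.79, and that of 3 red blood cell genes 7.43 to 7.75 against -3.25 to -2.20. The summed level of 5 leukocyte genes was 2.71 to 3.52 against -2.09 to -1.51. That of 5 endothelial genes overlapped, at 3.71 to 4.29 against 2.28 to 3.99, with 4 of the 5 called higher, and that of 6 smooth muscle genes was lower, at 5.87 to 6.60 against 8.15 to 8.61, with 2 of 5 tested called higher and 1 lower. The summed level of 7 adult fibre genes was 12.73 to 13.14 in quadriceps against 10.65 to 11.59 on day 4, with 4 of the 7 called higher and 3 not called. The part of cell makeup in these changes was not tested. Nor was that of strain, which in quadriceps replicates 2 and 3 was not that of the myotubes. In bulk samples fewer cells of a type cannot be told apart from less RNA per cell.

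Within quadriceps, replicate 1 lay more than 2-fold outside the other pair for 10 members. The share of all genes that did so is not given here, so this count only describes the members. Replicate 1 was more than 2-fold above both for 6 genes, Myom3, Actn2, Myoz2, Csrp3, Lmod2 and Ankrd2. It was more than 2-fold below both for 4, Actn3, Pdlim3, Mybpc2 and Trim63. Ankrd2 had the widest gap, 3.88 above the mean of replicates 2 and 3, and Actn3 was 1.40 below it. The summed level of 5 slow-fibre genes was 10.41, 7.51 and 3.88 in the 3 quadriceps samples. Replicate 1 is the one C57BL/6J muscle, so strain and sample cannot be told apart, and the part of fibre type was not tested. Without it, 19 members rose and 9 fell from day 4 to quadriceps, with Actn2, Myoz2, Csrp3 and Lmod2 added to the genes that fell.

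**Figure D5:**
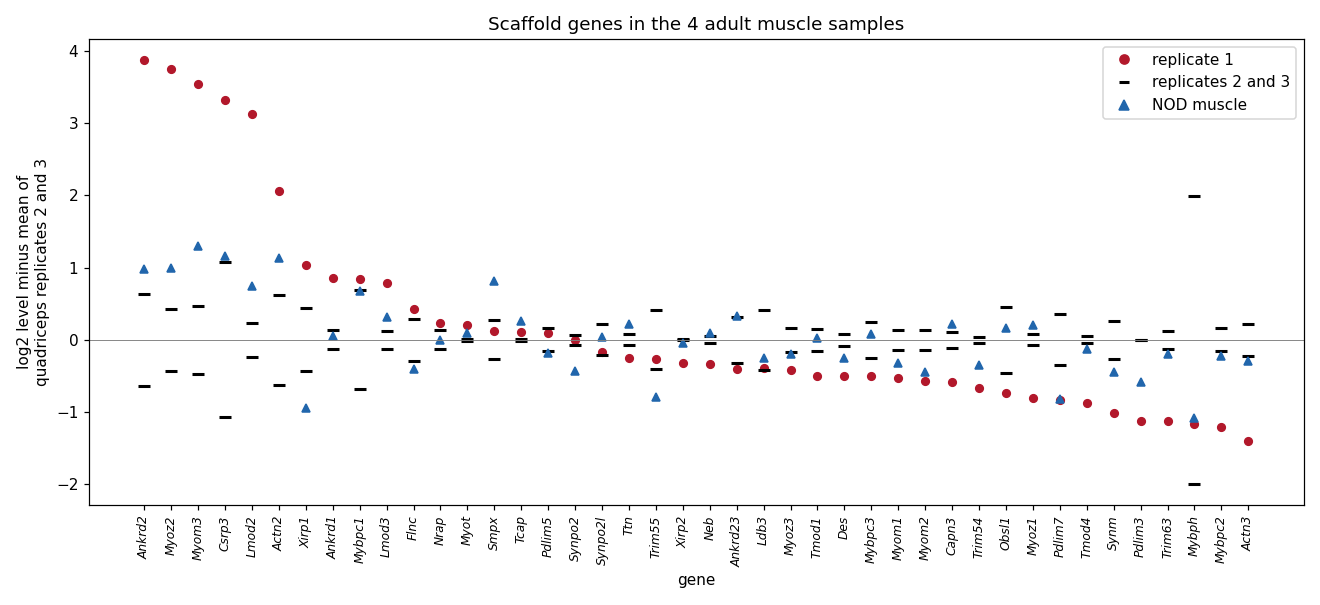
Log2 level of each gene in the 3 quadriceps samples and the NOD/ShiLtj muscle sample, minus the mean of quadriceps replicates 2 and 3. Replicate 1 stands more than 2-fold above both of them for 6 genes, led by Ankrd2 (3.88) and Myoz2 (3.74), and more than 2-fold below both for 4.

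Most of the scaffold was already above its stem cell level in myoblasts. Against stem cells, 29 of 41 tested members were higher and 3 lower in passage-0 myoblasts, where 17.5% and 19.8% of all genes tested were called higher and lower. In proliferating myoblasts 31 of 40 were higher and 3 lower, against 15.7% and 19.7% of all genes tested. The median member change was 4.51 and 3.64, and that of all genes -0.27 and -0.02. In stem cells 28 of the 42 members were above background in every sample, against 38 in passage-0 and 37 in proliferating myoblasts and 41 on days 2 and 4 and in quadriceps. The same counts over all genes are not given here. Of all spots other than controls, 54.98% to 60.1% were above background on the stem cell arrays and 39.1% to 58.64% on the others.

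Several of these differences were large. Mybph did not clear background on the stem cell arrays, and its signal was at least 853-fold higher in passage-0 and at least 771-fold higher in proliferating myoblasts, a bound set by the dimmest probes well above background on the stem cell arrays. Ankrd1 was 311-fold and 448-fold higher, and Tcap 283-fold and 311-fold. The Tcap sizes are not firm, because it was above background in only 2 of the 3 stem cell samples. Desmin rose by 6.16 ± 0.47 (SE, 71.6-fold, limma adjusted p = 1.1e-08) in passage-0 myoblasts, from -1.69, -0.94 and -0.66 in stem cells to 4.53, 5.55 and 5.12. Lmod3 rose by 7.74 ± 0.37 (SE, 214-fold, limma adjusted p = 5.1e-11), and Csrp3 was at least 159-fold higher. The 3 members lower in myoblasts than in stem cells were Synm, Mybpc2 and Mybpc3. Mybpc3 was lower by at least 14.5-fold in passage-0 and 6.51-fold in proliferating myoblasts, and Mybpc2 was lower by at least 12.7-fold in passage-0 myoblasts. Its call in proliferating myoblasts was lost without any one of 4 samples, with changes of -3.23 to -1.99. For Synm the probes disagreed at this step: 1 of 5 was called higher and 2 lower in passage-0 myoblasts, and with the mean of its probes the proliferating change was 0.10 in place of -1.97.

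Passage changed little. Of 38 members tested between proliferating and passage-0 myoblasts, 1 was called, Pdlim5, which fell by 1.35 (2.55-fold, limma adjusted p = 0.046), from 1.32, 2.06 and 1.84 to 0.14, 0.44 and 0.59. None was called higher (3 at an unadjusted p under 0.05). That call was lost without any one of 4 samples, with changes of -1.38 to -1.19. Of all genes tested, 0.393% were called higher and 0.771% lower. The median member change was -0.47, and on the 3 slides it was 0.08, -0.75 and -0.82.

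A wider list of sarcomere, costamere and cytoskeletal scaffold genes, of which 43 were on the array, changed in both directions. On day 1, 18 of 37 tested were higher and 1 lower, on day 2 18 and 8 of 38, and on day 4 18 and 9 of 38. In quadriceps against day 4, 9 of 39 were higher and 12 lower, and between days 4 and 2 none was called by limma (8 at an unadjusted p under 0.05). Filip1, a filamin-interacting protein, rose by 4.70 on day 1 (26-fold, limma adjusted p = 1.6e-05), and Csrp2, a LIM protein of smooth muscle, fell by 2.23. Cmya5 (myospryn), which binds desmin and calpain 3, rose by 6.06 on day 2 and 7.28 on day 4, and by a further 3.90 in quadriceps. In quadriceps the largest called changes were nestin (Nes), an intermediate filament of immature muscle, which fell by 4.28, and the ubiquitin ligase Fbxo32, which rose by 4.50.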

How the data were processed

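Scanner files of 23 one-colour arrays were read. Per the file headers, Agilent Feature Extraction 10.7.3.1 made the deposited intensity values (the background-subtracted processed signal) and the deposited 0 or 1 flags for spots well above background or outlying. The authors' deposited value table holds log2 values whose normalization method is not given in the sources used here, and it served as an alternative.

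Control and outlier spots were left out and spots of 1 probe averaged. The log2 processed signal minus each array's 75th percentile was fitted with limma 3.58.1 in R 4.3.3 as 7 group means over 21 samples, with Benjamini-Hochberg adjustment over all genes tested. Bounds ("at least") set the bright group's mean against, per array, the higher of the dim probe's signal and the lowest signal well above background. Slides held 1 sample of each group and were tried as a block.

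The number of arrays limits the precision. The members and lists were chosen with earlier results of these data known. All members are accounted for. Values in single samples are given for selected groups only. They are given mainly for members with the largest calls in their role group, with opposite changes or with disagreeing probes, and not for all of these. Promoter windows came from RefSeq, and a planned comparison of protein sequences was not made. One related gene that the naming rule selects is not reported here.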

Additional observations from a re-analysis of the deposited data

Results flagged for a closer look

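The NOD/ShiLtj skeletal muscle array entered no comparison. On it, 40 of the 42 members were above background and higher than in every stem cell sample. Of all its spots other than controls, 52.12% were above background. The shares of all genes for this count and for those that follow are not given here, so the counts only describe the members. For 30 members its level lay within the range of the 3 quadriceps samples, for 7 above it (Ttn, Neb, Tcap, Myoz1, Smpx, Capn3 and Ankrd23) and for 5 below it (Pdlim5, Synpo2, Flnc, Xirp1 and Trim55). The farthest outside were Xirp1, at 2.82 against 3.33 to 4.80 in quadriceps, and Smpx, at 5.79 against 4.71 to 5.25. Its slow-fibre summed level, 4.16, lay near that of quadriceps replicate 3 (3.88). With 1 array there is no error for these values.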

How the results depend on the processing

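The direction of every called member change held under each setting tried (quantile normalization, normexp background correction, the authors' values, filters, blocks, samples left out), except where the mean of all probes of a gene was used: the change was then 0.10 for Synm in proliferating myoblasts against stem cells and 1.72 for Myoz3 on day 2. Against stem cells, the median change in passage-0 myoblasts was 3.29 with normexp and 3.24 with the authors' values. Asking for signal above background in both groups left 18 members higher and 0 lower in passage-0 and 20 and 0 in proliferating myoblasts, since fewer genes are tested, and 1 was lower in proliferating myoblasts with normexp or with only the 2 groups in the fit. Between proliferating and passage-0 myoblasts, 2 members were lower with normexp and 0 with no filter, with both groups above background, with the mean of probes or with 2 groups in the fit. With only 2 groups in the fit, 0 members were higher on day 1 and 0 lower on day 4. The first day of rise was then day 1 for 0, day 4 for 6 and none for 14. That fit takes the spread from the 2 groups alone, and the median SD of the members was largest in proliferating myoblasts, at 1.03. For passage-0 myoblasts against stem cells it called 4195 genes higher and 5042 lower, in place of 3935 and 4444. The cause of these differences was not tested. With the mean of probes, 0 members were lower on days 2 and 4, 5 rose first on day 4, and the median step to quadriceps was 1.49. Day 2 was the first day for 8 members with normexp, and 10 did not rise with both groups above background. From day 1 to day 2 the median was 1.08 with the authors' values. From day 2 to day 4, normexp called 1 higher and 1 lower and the authors' values 2 higher. Where a cause is not named, the cause was not tested.

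Leaving out 1 sample at a time gave 0 to 1 members higher and 0 to 1 lower with passage, 7 to 23 higher on day 1, 0 to 1 lower on day 4, 1 to 8 higher from day 1 to day 2 (median 1.05 to 1.53), and 4 to 9 lower in quadriceps (median 0.84 to 1.48). The first day was day 1 for 7 to 23 members, day 2 for 11 to 26 and day 4 for 2 to 6. The title number is shared by proliferating and differentiating samples of the same replicate, and passage-0 replicate 1 carries that of their replicate 2. The labels do not say what it marks. Same-number correlations were 0.215, 0.512 and 0.725 between days 1 and 4, where every sample correlated best with its own number. In the other 5 pairings of these groups they ran from -0.288 to 0.639, with at least 1 under 0.1 in each, so the fit reported has no block. With the number as a replicate block, 16 members were higher on day 1 in place of 17 and 1 from day 1 to day 2 in place of 6. Signal over background limits Mybpc3, Xirp2 and the dim probes, whose low values have no order.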
